A study of Mus musculus with 16 samples.

Results

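The 9 genes described here, Dusp4, Dusp5, Dusp6, Spry1, Spry2, Spry4, Spred1, Etv4 and Etv5, are widely used readouts of signalling through the kinase ERK. They were chosen by name as feedback inhibitors and transcription factors of this pathway, by a rule that uses no measured value but at a time when earlier results of these data were known, and all 9 were among the 32989 identifiers of the count table. RNA was measured by 3′ RNA-seq with unique molecular identifiers (UMIs), short random tags that let copies of 1 molecule be counted once. The samples were hair follicle stem cell (HFSC) organoids grown for 2 weeks from epidermal cells of 4 C57BL/6J mice and sorted on integrin α6 and CD34. The 4 groups were untreated α6+/CD34− progenitors, untreated α6+/CD34+ HFSCs, and the same fractions after 72 h of culture with N1-acetylspermidine (N1-AcSpd), a polyamine carrying an acetyl group. Titles of the untreated libraries also call them WT. Each mouse gave 1 library to each group, making 16 libraries.

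Several features were shared by all 4 groups. The cells came from mice of both sexes in telogen, the resting phase of the hair cycle, and the methods give only age ranges within telogen for such isolations, with no age for each of these 4 mice. The culture medium of every group held EGF and FGF2, both of which activate ERK through their receptors, together with VEGF, insulin, hydrocortisone, serum and the ROCK inhibitor Y27632. The cDNA of all libraries was pooled into 1 tube after barcoding. A fraction is a sorted mixture, so a lower level in bulk RNA may be fewer cells that hold the transcript or less transcript per cell, and these cannot be told apart.

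ERK is the last kinase of a cascade in which growth factor receptors activate RAS, RAF and MEK in turn. Active ERK induces genes whose products restrain the same pathway. The dual-specificity phosphatases DUSP4, DUSP5 and DUSP6 remove the activating phosphates from ERK, DUSP4 and DUSP5 in the nucleus and DUSP6 in the cytoplasm. The Sprouty proteins SPRY1, SPRY2 and SPRY4 act between receptor and RAF, and SPRED1 brings the RAS inactivator neurofibromin to the membrane. ETV4 and ETV5 are ETS-family transcription factors that often follow FGF signalling. ERK activity itself is a protein measurement and was not part of these libraries.

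The 16 libraries held 15480075 to 29074855 UMIs, and 22142 to 24247 genes had at least 1. Cd34 lay between 2.88 and 3.65 CPM (UMIs per 1000000 UMIs, on library totals scaled by the TMM method) in CD34− libraries and between 43.4 and 64.1 CPM in CD34+ libraries, as the sort labels call for. The 8 HFSC markers, which include the sort markers Cd34 and Itga6, summed to 122 to 160 CPM in CD34− and 416 to 671 CPM in CD34+ libraries. By the test described below, 5 of the 8 were called higher and 1 lower in CD34+ cells, in each condition. Of all tested genes, 16.1% were called higher and 16.1% lower in untreated cells, and 16.5% and 16.8% in N1-AcSpd cells. Itga6 stood at 58.1 to 68.9 CPM in untreated CD34− and 45.9 to 53 CPM in untreated CD34+ libraries, against the direction of the sum. The 7 epidermal differentiation markers summed to 1030 to 1560 CPM and 295 to 400 CPM. This difference moves with every result between fractions below, and its part in them was not tested. Keratinocyte markers summed to 5730 to 6960 CPM in all libraries. Of the other cell types, melanocyte markers summed to 9.39 to 12.6 CPM, fibroblast markers to 0.171 to 1.52 CPM and immune markers to 0 to 2.08 CPM. The endothelial pair Pecam1 and Kdr summed to 1690 to 2050 CPM, nearly all of it in Pecam1. Kdr averaged 0.0108 and 0.0899 CPM in untreated CD34− and CD34+ cells, so it is unsure whether the Pecam1 counts are of that transcript, and the sum is not read as an endothelial level.

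The largest contrast among the 9 genes lay between a pair of ERK phosphatases. Dusp6 was higher in HFSCs and Dusp5 was higher in progenitors, in every mouse and with or without N1-AcSpd. Their upstream sequences are shown because these members differ in opposite directions. Both were read from RefSeq promoter windows on GRCm38.p6 (the assembly also called mm10), plus strand, ending just before the annotated gene start. Capitals mark the CArG box, the binding motif of serum response factor (SRF). This motif was added to the search after the windows had been read.

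Dusp5, chr19:53528895-53529108: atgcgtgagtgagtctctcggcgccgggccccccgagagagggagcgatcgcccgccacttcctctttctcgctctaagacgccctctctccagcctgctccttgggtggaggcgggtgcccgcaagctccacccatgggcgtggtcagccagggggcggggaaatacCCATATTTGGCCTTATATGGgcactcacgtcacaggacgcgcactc

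Dusp6, chr10:99262981-99263230: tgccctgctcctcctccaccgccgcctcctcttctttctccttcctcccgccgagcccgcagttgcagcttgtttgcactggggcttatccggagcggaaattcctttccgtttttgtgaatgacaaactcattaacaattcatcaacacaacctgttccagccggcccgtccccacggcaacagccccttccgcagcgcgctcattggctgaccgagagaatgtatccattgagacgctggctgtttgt

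The Dusp5 window held 2 adjoining CArG boxes, starting 82 and 72 bases before the RefSeq start, and the Dusp6 window held none. Of 32851 RefSeq windows of 300 bases, 1.63% held at least 1 CArG box and 0.0183% held 2 or more. Both shares are description only, since this motif was sought after the windows had been read. RefSeq windows were found for 6 of the 9 genes, 7 windows in all, since Etv5 has 2. Further motifs were sought on either strand by the letters given here, and other forms of the ETS and capicua sites were not. CCGGAA, a form of the ETS site, occurred once, in the Spry2 window 34 bases after the start, against 14.9% of all windows. The AP-1 site TGANTCA, the CRE TGACGTCA and the octamers TGAATGAA and TGAATGGA, forms of the capicua site, occurred in none of the 7 windows. They were present in 7.81%, 1.79% and 2.47% of all windows. These searches describe letters in the sequence and do not show binding.

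Of the 9 genes, 7 had a mean count of at least 5 UMIs over the 16 libraries and were tested with all 19049 such genes by edgeR. In untreated cells, CD34+ against CD34−, 5 of the 7 had a Benjamini-Hochberg adjusted p under 0.05, and 4 were higher in HFSCs and 1 lower. Of all tested genes 32.1% passed in this comparison, 16.1% higher and 16.1% lower. In N1-AcSpd cells 6 of the 7 passed, 5 higher and 1 lower, where 33.3% of all genes did, 16.5% higher and 16.8% lower. The median log2 fold change of the 7 was 0.58 in untreated and 0.54 in N1-AcSpd cells, beside 0.02 and -0.01 over all genes tested. These medians cover only the genes that passed the count minimum. Among untreated libraries, 4 of the 9 genes lay wholly higher and 1 wholly lower in CD34+ than in CD34− libraries. With N1-AcSpd 5 lay wholly higher and 1 wholly lower. Such a lack of overlap, in either direction, was seen for 32.2% of all tested genes in untreated and 34.4% in N1-AcSpd cells.

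**Figure D1:**
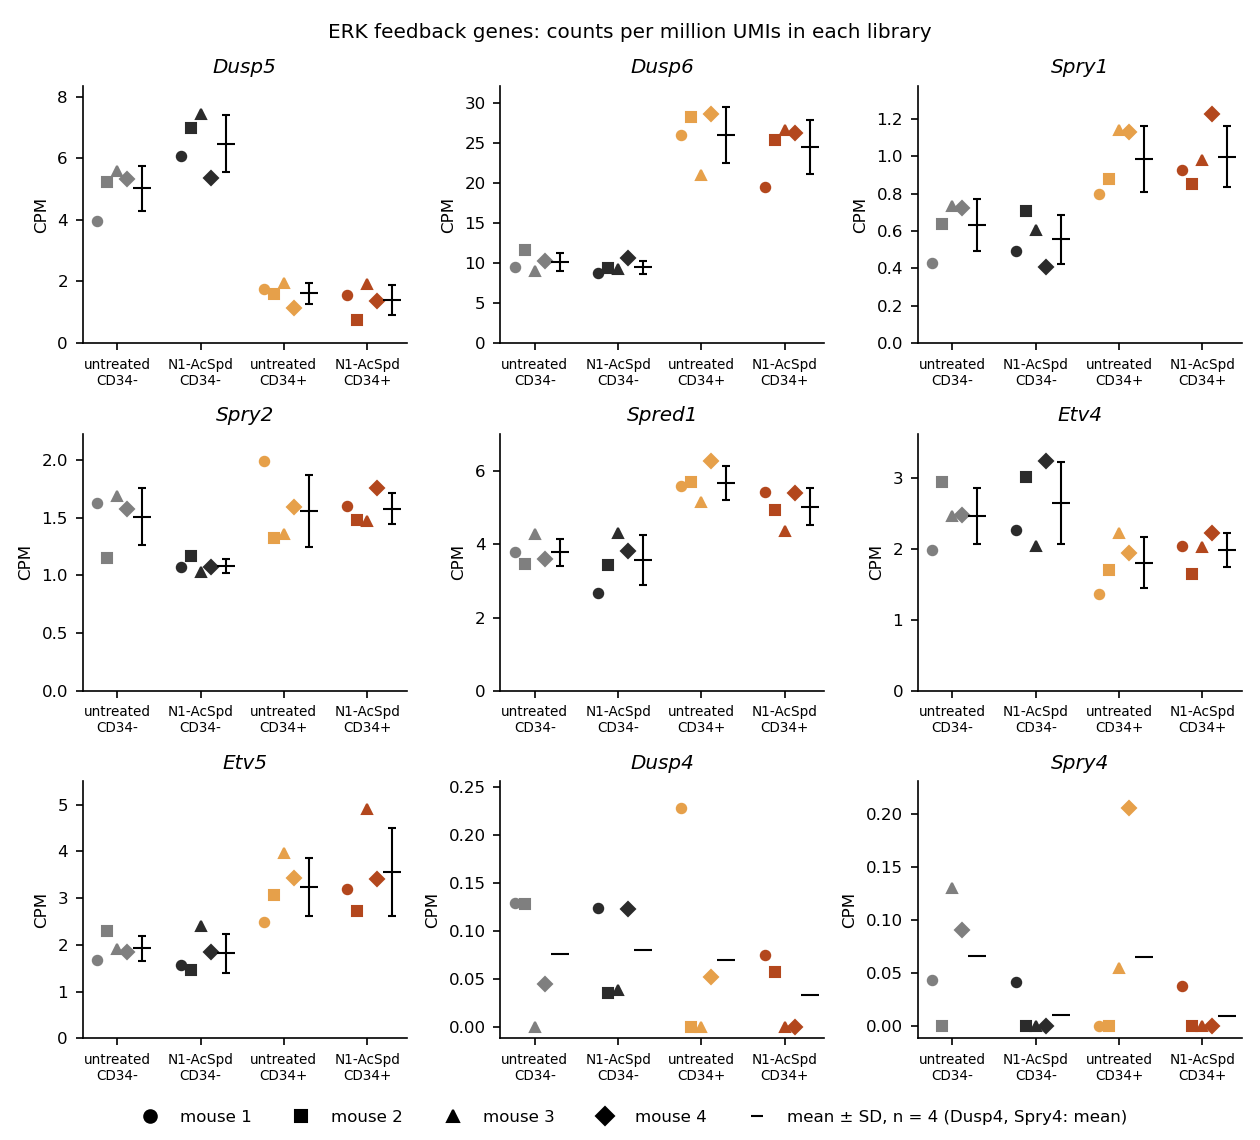
Levels of the 9 genes in CPM (vertical axes, linear, each panel on its own scale) in the 16 libraries, by group on the horizontal axis. Marker shapes stand for the 4 mice and the horizontal dashes for the group mean with SD (mean only for Dusp4 and Spry4). Dusp5 lies between 3.96 and 7.45 CPM in CD34− libraries and between 0.74 and 1.95 CPM in CD34+ libraries, and Dusp6 shows the opposite order.

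Dusp6 (ENSMUSG00000019960, chromosome 10, 99263231 to 99267489, plus strand, GRCm38) encodes the cytoplasmic ERK phosphatase. In untreated CD34− cells it stood at 9.51, 11.6, 9.05 and 10.2 CPM in mice 1 to 4, and in untreated CD34+ cells at 26, 28.3, 21 and 28.7 CPM. In N1-AcSpd cells the values were 8.75, 9.37, 9.2 and 10.6 CPM in the CD34− and 19.5, 25.4, 26.7 and 26.3 CPM in the CD34+ fraction. Every CD34+ library was thus above every CD34− library in both conditions. The lowest library held 182 Dusp6 UMIs, so counting error was small beside the differences. The log2 fold change was 1.37 in untreated cells (SE 0.121, adjusted p = 1.99e-06), a 2.58-fold difference. It was 1.37 in N1-AcSpd cells as well (SE 0.121, adjusted p = 1.8e-06).

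Dusp5 (ENSMUSG00000034765, chromosome 19, 53529109 to 53542431, plus strand) encodes the nuclear ERK phosphatase. Untreated CD34− cells held 3.96, 5.24, 5.59 and 5.32 CPM and untreated CD34+ cells 1.76, 1.59, 1.95 and 1.13 CPM. In N1-AcSpd cells the CD34− values were 6.07, 6.99, 7.45 and 5.37 CPM and the CD34+ values 1.56, 0.74, 1.9 and 1.35 CPM. The fractions did not overlap in either condition. The CD34+ libraries held 13 to 42 Dusp5 UMIs each, and the lowest was that of mouse 2 with N1-AcSpd. Dusp5 was lower in HFSCs by a log2 fold change of -1.64 in untreated cells (SE 0.234, adjusted p = 0.000123). The log2 fold change was -2.22 with N1-AcSpd (SE 0.237, adjusted p = 8.28e-06), so the HFSC level was 0.321 and 0.215 times the progenitor level.

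The ratio of Dusp6 to Dusp5 UMIs within a library does not depend on how libraries are scaled. This ratio was computed after the values had been seen and is given as a description. It lay between 1.62 and 2.4 in untreated CD34− libraries and between 1.23 and 1.98 in N1-AcSpd CD34− libraries. In CD34+ libraries it lay between 10.8 and 25.4 without and between 12.5 and 34.3 with N1-AcSpd. No CD34+ library came near the CD34− range.

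**Figure D2:**
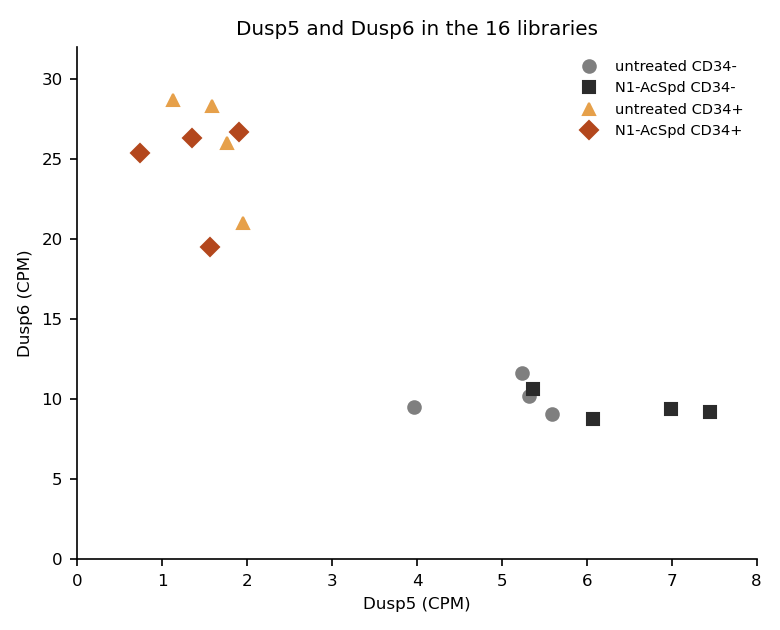
Dusp5 (horizontal axis, CPM) against Dusp6 (vertical axis, CPM) in the 16 libraries, both axes linear from 0. Each point is 1 library, with marker and colour giving the group; the 8 CD34− libraries sit at the lower right (Dusp6 at 8.75 to 11.6 CPM) and the 8 CD34+ libraries at the upper left (Dusp6 at 19.5 to 28.7 CPM).

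Etv5 (ENSMUSG00000013089, chromosome 16, 22381309 to 22439719, minus strand) was also higher in HFSCs, while its close relative Etv4 was not. Etv5 stood at 1.68, 2.3, 1.91 and 1.85 CPM in untreated CD34− and at 2.5, 3.07, 3.96 and 3.44 CPM in untreated CD34+ cells. With N1-AcSpd the CD34− values were 1.57, 1.46, 2.4 and 1.85 CPM and the CD34+ values 3.19, 2.73, 4.91 and 3.41 CPM. The fractions did not overlap in either condition, although the margin in untreated cells was between 2.3 and 2.5 CPM. The log2 fold changes were 0.75 in untreated (SE 0.205, adjusted p = 0.0124) and 0.97 in N1-AcSpd cells (SE 0.204, adjusted p = 0.00213). Without mouse 4 the untreated value was 0.70 and its adjusted p was 0.104.

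Etv4 (ENSMUSG00000017724, chromosome 11, 101769742 to 101785371, minus strand) stood at 2.47 ± 0.392 CPM (SD, n = 4) in untreated CD34− and 1.81 ± 0.365 CPM in untreated CD34+ cells. With N1-AcSpd the levels were 2.65 ± 0.573 and 1.99 ± 0.243 CPM. The groups overlapped in both conditions, although the CD34+ library was below the CD34− library in 4 of 4 mice each time. The log2 fold changes of -0.44 (SE 0.184) and -0.41 (SE 0.182) had adjusted p of 0.0855 and 0.102. When the libraries were thinned to equal depth the adjusted p were 0.0223 and 0.029, and with mouse 3 left out of the untreated HFSCs the untreated p was 0.0429.

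Spred1 (ENSMUSG00000027351, chromosome 2, 117121374 to 117182279, plus strand), the RAS-level inhibitor, was higher in HFSCs. It stood at 3.79, 3.45, 4.29 and 3.61 CPM in untreated CD34− and at 5.58, 5.71, 5.15 and 6.27 CPM in untreated CD34+ cells. With N1-AcSpd the CD34− values were 2.68, 3.44, 4.3 and 3.82 CPM and the CD34+ values 5.42, 4.95, 4.36 and 5.4 CPM. The fractions stood clear of each other in untreated cells, and with N1-AcSpd the CD34− and CD34+ libraries of mouse 3 nearly met. The log2 fold changes were 0.58 in untreated (SE 0.127, adjusted p = 0.00297) and 0.50 in N1-AcSpd cells (SE 0.127, adjusted p = 0.00725). Without mouse 1 or without mouse 2 the N1-AcSpd adjusted p was 0.0713 or 0.0581.

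Spry1 (ENSMUSG00000037211, chromosome 3, 37639947 to 37644598, plus strand) was measured with few molecules, 10 to 25 UMIs a library. It stood at 0.43, 0.639, 0.736 and 0.722 CPM in untreated CD34− and at 0.797, 0.878, 1.14 and 1.13 CPM in untreated CD34+ cells. With N1-AcSpd the CD34− values were 0.495, 0.71, 0.608 and 0.41 CPM and the CD34+ values 0.929, 0.854, 0.982 and 1.23 CPM. Every CD34+ library was above every CD34− library of its condition. The log2 fold change was 0.64 in untreated cells, where the adjusted p of 0.0478 was just under the threshold. That call was lost in 16 of 20 runs that left out a library or a mouse, with adjusted p up to 0.175 without mouse 1 in the untreated progenitors. The 4 runs that kept it were those without mouse 2 or 4 in the N1-AcSpd progenitors, mouse 1 in the untreated HFSCs or mouse 4 in the N1-AcSpd HFSCs. In N1-AcSpd cells the log2 fold change was 0.84 (SE 0.229, below the counting error of 0.251, adjusted p = 0.0118). Without mouse 3 or mouse 4 the adjusted p was 0.0547 or 0.122. The unnamed gene model Gm42922 overlaps Spry1 on the opposite strand and held 0 to 2 UMIs a library.

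Spry2 (ENSMUSG00000022114, chromosome 14, 105891947 to 105896819, minus strand) showed a difference between fractions in N1-AcSpd cells and none that could be detected in untreated cells. Untreated CD34− cells held 1.63, 1.15, 1.69 and 1.58 CPM and untreated CD34+ cells 1.99, 1.32, 1.36 and 1.59 CPM, and these ranges overlap. With N1-AcSpd the CD34− values were 1.07, 1.17, 1.03 and 1.07 CPM and the CD34+ values 1.6, 1.48, 1.47 and 1.76 CPM, which do not overlap. The log2 fold change between fractions was 0.04 in untreated cells (95% interval -0.354 to 0.44, adjusted p = 0.974). It was 0.54 with N1-AcSpd (SE 0.154, below the counting error of 0.188, adjusted p = 0.0161). That call was lost with DESeq2 (adjusted p = 0.0604), after thinning (0.209), without mouse 4 in the N1-AcSpd HFSCs (0.052), and after dropping mouse 1, mouse 3 or mouse 4 (0.0659, 0.0664 and 0.124). The difference between both effects, the interaction, was 0.50 on the log2 scale, in the same direction in 4 of 4 mice. Its unadjusted p was 0.0458 and its adjusted p was 1 over all genes, so a difference between conditions was not established.

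Dusp4 and Spry4 were near the limit of detection. Dusp4 (ENSMUSG00000031530, chromosome 8, 34807297 to 34819894, plus strand), the other nuclear ERK phosphatase of the set, had 0 to 4 UMIs a library. Its groups held 6 and 8 UMIs in untreated and N1-AcSpd CD34− cells and 5 and 3 in untreated and N1-AcSpd CD34+ cells. The untreated groups corresponded to 0.0682 CPM on unscaled totals (exact Poisson 95% interval 0.025 to 0.148) and 0.0704 CPM (0.0228 to 0.164). Spry4 (ENSMUSG00000024427, chromosome 18, 38586247 to 38601415, minus strand) had 6 and 5 UMIs in the untreated CD34− and CD34+ groups and 1 UMI in each N1-AcSpd group. The N1-AcSpd groups corresponded to 0.00934 CPM (0.000236 to 0.052) and 0.0134 CPM (0.000339 to 0.0746), and their intervals overlap those of the untreated groups. In a fit with no count minimum neither gene passed in any comparison. The lowest adjusted p was that of Spry4 for treatment averaged over both fractions, at 0.31, where the edgeR unadjusted p was 0.0325. Overlap of intervals is not a test, and no difference in these genes was established at this depth.

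**Figure D3:**
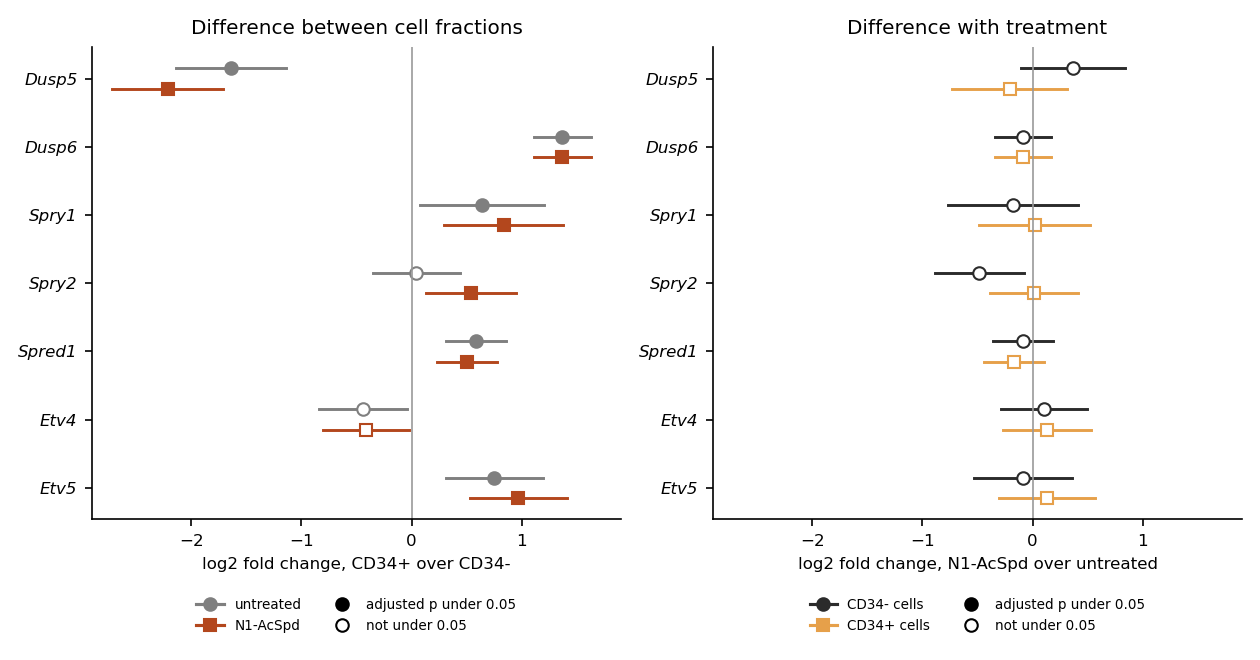
Log2 fold changes (horizontal axes) of the 7 tested genes, with lines for the 95% interval; filled markers have an edgeR adjusted p under 0.05. At left, CD34+ over CD34− in untreated (circles) and N1-AcSpd cells (squares), from -2.22 for Dusp5 to 1.37 for Dusp6, and at right N1-AcSpd over untreated in CD34− (circles) and CD34+ cells (squares), where no marker is filled and values run from -0.48 to 0.37.

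The treatment comparisons asked whether N1-AcSpd moved these genes within a fraction. None of the 7 passed in CD34− cells, where 0.614% of all genes did, and none in CD34+ cells, where 0.325% did. With the treatment effect averaged over both fractions, none passed while 4.87% of all genes did. At an unadjusted p under 0.05, 1 of the 7 would pass in CD34− cells (13.6% of all genes), 0 in CD34+ cells (13.2%) and 0 for the average (20.8%). DESeq2 called none of them in any of these comparisons. The marker sums also moved with treatment. HFSC markers summed to 144 to 160 CPM in untreated and 122 to 131 CPM in N1-AcSpd CD34− libraries, which do not overlap, and to 504 to 671 and 416 to 605 CPM in CD34+ libraries. Differentiation markers summed to 1030 to 1370 and 1240 to 1560 CPM in CD34− and to 295 to 321 and 310 to 400 CPM in CD34+ libraries. For the averaged treatment effect 2 of 8 HFSC markers passed as lower and 2 of 7 differentiation markers as higher. Of all genes 2.17% passed as lower and 2.7% as higher. The part of this marker shift in the treatment results was not tested. The treatment and fraction comparisons share libraries, so their values are given side by side and not as separate evidence.

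The smallest treatment p belonged to Spry2 in CD34− cells. Its level was 1.51 ± 0.246 CPM (SD, n = 4) without and 1.08 ± 0.0615 CPM with N1-AcSpd, and the groups overlapped through mouse 2. The log2 fold change was -0.48 (95% interval -0.882 to -0.0821, unadjusted p = 0.00758, edgeR adjusted p = 0.175), with a lower level in 3 of 4 mice. In CD34+ cells the Spry2 log2 fold change was 0.01 (-0.389 to 0.416).

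Dusp5 had a higher level with N1-AcSpd in CD34− cells in 4 of 4 mice, 6.47 ± 0.932 against 5.03 ± 0.728 CPM (SD, n = 4). The log2 fold change was 0.37 (95% interval -0.107 to 0.838, edgeR adjusted p = 0.506). In CD34+ cells it was -0.21 (-0.729 to 0.311), and the interaction of -0.57 (-1.28 to 0.129) had an unadjusted p of 0.101. Spred1 was lower in 4 of 4 mice in CD34+ cells, 5.03 ± 0.501 against 5.68 ± 0.461 CPM, with a log2 fold change of -0.17 and an adjusted p of 0.638. None of these differences passed the test.

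Dusp6 gave the narrowest intervals. Its treatment log2 fold change was -0.09 in CD34− cells (95% interval -0.344 to 0.17) and -0.09 in CD34+ cells (-0.341 to 0.169). A change by 1 on the log2 scale lay outside the 95% interval in both fractions for each of the 7 tested genes. For the interaction, 0 of the 7 genes passed, as did 0% of all genes, while 4.19% had an unadjusted p under 0.05, which 1 of the 7 had. DESeq2 called 72 genes in the interaction and none of the 7.

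The other genes of the pathway are given from 4 lists. Of 22 FGF and EGF receptors and ligands, 21 were in the table and 16 were tested. In untreated cells 7 passed, 1 higher and 6 lower in HFSCs, a share of 43.8% beside the 32.1% of all genes, and the median log2 fold change was -0.33. Among the 6 lower, the receptor genes Erbb3 and Fgfr3 kept their calls in 13 and 6 of 20 leave-out runs, with adjusted p up to 0.174 and 0.252. The receptor gene Fgfr1 was the one higher in HFSCs, at 14.3 ± 1.18 against 6.92 ± 0.556 CPM (log2 fold change 1.05, adjusted p = 3.12e-06). The lower ones with the largest log2 fold changes were the EGF receptor ligands Epgn at -1.43, Areg at -1.23 and Hbegf at -1.08, with adjusted p of 5.84e-07, 9.31e-05 and 0.000435. Epgn stood at 28.1 ± 2.77 CPM in progenitors and 10.4 ± 0.971 CPM in HFSCs (SD, n = 4). In N1-AcSpd cells 7 passed as well, 2 higher and 5 lower (43.8% beside 33.3%). The higher ones were Fgfr1 at 1.22 and the EGF receptor gene Egfr at 0.27, whose adjusted p of 0.0106 became 0.0991 at most without mouse 1 or mouse 3.

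Genes of the RAS to ERK cascade passed in untreated cells at a share near that of all genes. All 22 genes of the list were tested and 7 passed in untreated cells, 2 higher and 5 lower, a share of 31.8% beside the 32.1% of all genes. Among the genes that passed, the largest log2 fold changes were 0.46 for Mapk3, which encodes ERK1, -0.35 for the receptor adaptor gene Frs2 and -0.30 for Map2k1, which encodes MEK1. Their adjusted p were 0.00423, 0.0277 and 0.000905. The Frs2 call was lost when mouse 3 or 4 was left out of the untreated progenitors or of all groups, or mouse 2 or 3 of the untreated HFSCs (adjusted p up to 0.147), and the Mapk3 call without mouse 2 (0.0567). In N1-AcSpd cells 6 of 22 passed, 3 in each direction (27.3% beside 33.3%). Of the higher ones, the ERK-activated kinase gene Rps6ka1 had an adjusted p of 0.0499 and kept its call in 6 of 20 leave-out runs and 5 of 8 other settings.

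Relatives of the 9 genes and other feedback inhibitors made a list of 17, of which 13 were tested. In untreated cells 5 passed, 1 higher and 4 lower in HFSCs (38.5%, near the 32.1% of all genes). The receptor inhibitor gene Lrig1 was higher (log2 fold change 0.56, SE 0.176, adjusted p = 0.0246), and the phosphatase genes Dusp3 and Dusp14 were lower (-0.73 and -0.37, adjusted p = 0.000361 and 0.0273). The other lower ones were the phosphatase genes Dusp8 at -0.30 and Dusp7 at -0.21. Dusp8 and Dusp7 kept their calls in 17 and 12 of 20 leave-out runs and in 7 and 6 of 8 other settings. Without mouse 4 the list kept 1 call, that of Dusp3. The Lrig1 and Dusp14 calls were also lost when mouse 1 or 2 was left out of all groups, mouse 3 or 4 of the untreated progenitors, or mouse 4 of the untreated HFSCs. That of Dusp14 was lost without mouse 1 in the untreated HFSCs too. The runs without 1 library or mouse gave adjusted p up to 0.195 for Lrig1 and 0.135 for Dusp14. Lrig1 and Dusp14 kept their calls in 7 and 6 of 8 other settings. In N1-AcSpd cells 2 passed (15.4% beside 33.3%), both lower, namely these same phosphatase genes, Dusp14 at -0.57 and Dusp3 at -0.81.

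Genes that respond early to ERK, with related transcription factors such as Elk3, made a list of 19, all tested. All 19 are called early genes below for short. In untreated cells 10 passed, 1 higher and 9 lower in HFSCs (52.6% beside 32.1%), with a median log2 fold change of -0.22. Leaving out a library or mouse left 8 to 11 called. Among the lower ones, Elk3 and Myc kept their calls in 5 and 11 of these 20 runs, with edgeR adjusted p up to 0.263 and 0.15. They kept them in 2 and 6 of 8 other settings. The lower ones were led by the transcription factor gene Egr3 at -2.17, the urokinase receptor gene Plaur at -1.64 and Phlda1 at -1.37 (adjusted p = 0.000491, 0.000969 and 8.05e-07). Egr1, a relative of Egr3, was the one higher, at 35 ± 2.78 against 23.5 ± 2.22 CPM (log2 fold change 0.58, adjusted p = 0.000689). In N1-AcSpd cells 11 passed, 1 higher and 10 lower (57.9% beside 33.3% of all genes, 16.5% higher and 16.8% lower). Single members stood on both sides among the early genes and among the 9 feedback genes. Calls in untreated cells were 1 higher and 9 lower in this list, related factors included, against 4 higher and 1 lower among the feedback genes.

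**Figure D4:**
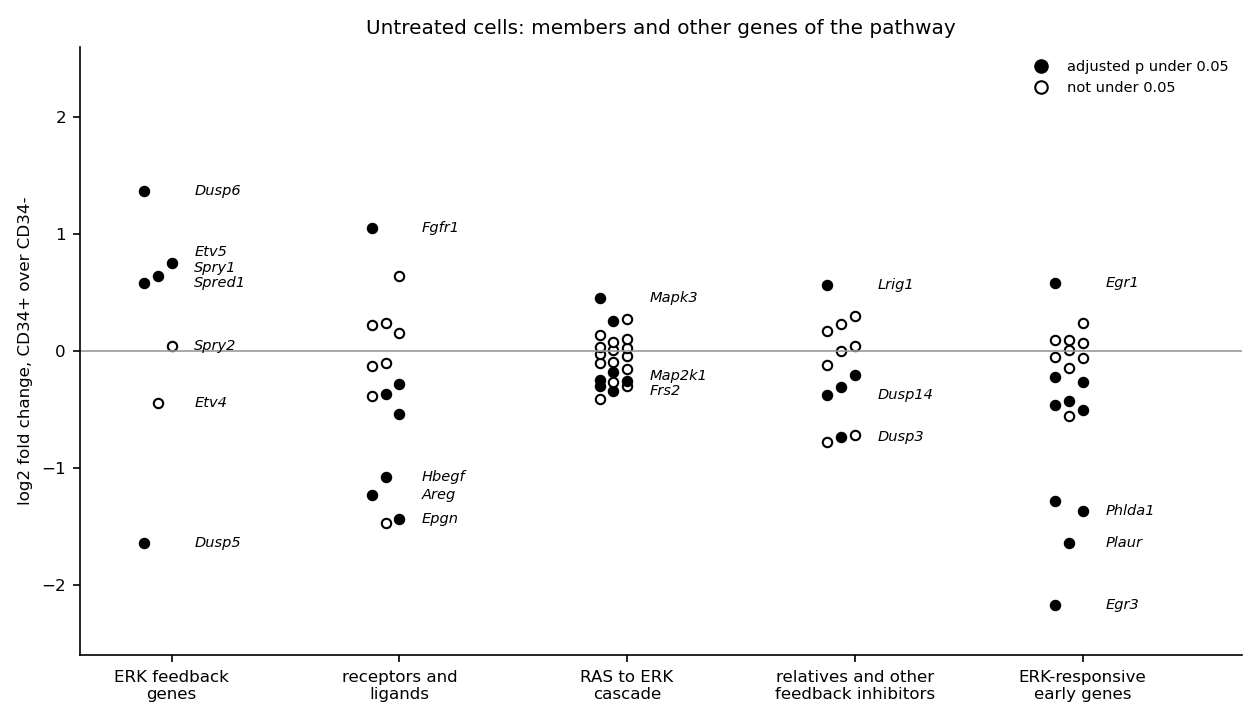
Log2 fold changes, CD34+ over CD34− in untreated cells (vertical axis), of the 7 tested ERK feedback genes and the tested genes of 4 other lists (horizontal axis). Each circle is 1 gene, filled where the edgeR adjusted p is under 0.05, and Fgf5, which had no UMI in untreated CD34+ libraries, lies off the axis; feedback genes run from -1.64 to 1.37 and early genes down to -2.17.

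No gene of these 4 lists passed for treatment within a single fraction in the edgeR fit without a mouse term. With mouse as a block, the EGF receptor ligand gene Areg (log2 fold change 0.45, adjusted p = 0.0303) and the early genes Junb (0.25, adjusted p = 0.0237) and Phlda1 (0.47, adjusted p = 0.0386) passed as higher with N1-AcSpd in CD34− cells. Phlda1 also passed there after thinning, with library totals and without mouse 1 in the N1-AcSpd progenitors, and DESeq2 called Junb, Phlda1 and Dusp1 there. With the treatment effect averaged over both fractions, 3 of 13 relatives passed, 1 higher and 2 lower, and 4 of 19 early genes passed, 3 higher and 1 lower. Of all genes 2.7% passed as higher and 2.17% as lower with N1-AcSpd. None of the receptors, ligands or cascade genes did in this fit. Areg passed with the mouse block (0.41, adjusted p = 0.00461) and with DESeq2, which also called the cascade genes Nras (0.08) and Map2k1 (0.13). Leaving out 1 library or mouse brought in Areg, Erbb3 or Fgfr1, at most 1 of them in a run. The relatives were Dusp1 at 0.28, Dusp8 at -0.30 and Cbl, a ubiquitin ligase gene, at -0.27 on the log2 scale, with adjusted p of 0.0278, 0.0201 and 0.0374. The early genes were Phlda1 at 0.41, Junb at 0.18, Ier2 at 0.13 and Srf at -0.44, with adjusted p of 0.00801, 0.0264, 0.036 and 0.0459. These 7 genes, and those brought in by other settings, are named after their values were seen. Leaving out a library or mouse left 0 to 4 of the relatives and 0 to 3 of the early genes called, with 0 relatives without mouse 1 and 0 early genes without mouse 2. Dusp8 and Phlda1 kept their calls in 16 and 18 of these 20 runs, Dusp1 and Junb in 13 and 15, Cbl and Ier2 in 5 each and Srf in 2.

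Other genes with patterns like those of the 5 members called between fractions in both conditions were sought among 9414 named genes whose mean count reached 50. Likeness was the root mean square difference of log2 CPM over the 16 libraries, each gene centred on its own mean. Nearest to Dusp6 were Fah and Alcam, at distances of 0.116 and 0.155, where a gene with no variation would stand at 0.695. Nearest to Dusp5 were F3 and Mpzl3, at 0.291 and 0.308 (1.01 for a gene with no variation). Arl15 and P3h2 were nearest to Spry1 (0.187 and 0.193, with 0.41 for a gene with no variation). Rab4b and Crybg1 were nearest to Spred1 (0.13 and 0.136, with 0.32 for no variation). Arl6 and Cfap36 were nearest to Etv5 (0.212 and 0.217, with 0.48 for no variation). These are descriptions of likeness in 16 libraries from 4 mice.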

How the data were processed

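3′ RNA-seq of sorted HFSC organoid fractions was analysed from the UMI count table the authors deposited. Per the study's methods, the authors demultiplexed the reads with FLEXBAR, mapped them with kallisto (0.45.0 in the submitters' processing notes) to mm10, assigned tags with BEDTools and counted unique UMIs per gene in R. The annotation release is not given in the sources used here. The deposited counts are not normalized, and 156050 empty cells were read as 0. The 62 identifiers without a symbol in GENCODE vM21 held 0.116% of counts. Sequences came from RefSeq windows on GRCm38.p6.

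Genes averaging 5 or more UMIs (the study's filter) entered the quasi-likelihood test of edgeR 4.0.16 (R 4.3.3) after TMM scaling, in 1 fit of 16 libraries with 1 mean per group. Two-sided p-values were adjusted over 19049 genes and called under 0.05. SE is the log2 fold change over the square root of F, and 95% intervals use the larger of SE and counting error. Intervals cover counting error only where named Poisson. CPM values are given as mean ± SD. Markers, lists and motifs are printed by a rule, which gives all 9 members. At most 3 called genes a list are given, by size of change in untreated cells. A few other list genes were named after their values were seen (Fgfr1, Egr1, Egfr, Dusp7, Dusp8, Erbb3, Fgfr3, Rps6ka1, Elk3 and Myc). The 9 genes and all lists were chosen with earlier results of these data known. Fgfr4, Sox10, Cd207 and Cdh5 were not analysed here, and 1 cascade gene is counted but not reported by name.

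Each replicate number stands for 1 mouse in the labels, so libraries are paired. Deviations of same-mouse libraries correlated with a mean r of 0.013 (-0.069 to 0.086, 24 pairs). Alternatives were mouse as a block, DESeq2 size factors, library totals, filterByExpr, no filter, DESeq2 1.42.0, thinning to 15480075 UMIs, fitting only the compared groups, and leaving out each library or mouse. Scaling and library depth can move a CPM level, and the 15480075 to 29074855 UMIs a library give few counts for low members such as Spry1.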

Additional observations from a re-analysis of the deposited data

Results flagged for a closer look

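Spry4 was marked in 2 groups because 1 library of a group stood apart from the other 3. With N1-AcSpd, mouse 1 held 0.0413 CPM in the CD34− fraction and 0.0371 CPM in the CD34+ fraction, and the other 3 mice held 0 in each. Each value is 1 UMI. Of the 36 groups of 4 libraries checked for the 9 genes these were the 2 marked, and chance alone marks about 1 group in 20 for continuous values, a rate that does not hold for counts of 0 and 1.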

How the results depend on the processing

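Dusp5 and Dusp6 kept direction and call between fractions in both conditions under all 8 other settings and all 20 leave-out runs. The number of called members in untreated cells ran from 3 to 5 when a library or mouse was left out, with 3 without mouse 4, and from 4 to 6 in N1-AcSpd cells. The Spry1 call in untreated cells was lost with DESeq2 size factors, no filter, DESeq2, thinning and only the compared groups, with adjusted p up to 0.197. The cause was not tested. Mouse as a replicate block left 5 and 6 members called between fractions and changed no member's call, while the all-gene treatment counts of 117, 62 and 928 became 351, 152 and 1551. No filter gave 35, 35 and 445, and DESeq2 gave 558, 423 and 1585, with 72 for the interaction. Thinning gave 35 in CD34+ cells, and fitting only the compared groups gave 0 and 23. Leaving out a library or mouse gave 4 to 158, 3 to 73, 175 to 1062 and, for the interaction, 0 to 11. Scaling by library totals moved the median of all genes to 0.137 and 0.109 between fractions and the share of higher calls from 50% and 49.6% to 73.4% and 71.6%, and changed no member's direction. With DESeq2 the higher share of CD34+ treatment calls was 75.4%, and with DESeq2 size factors 70.7%, beside 58.1%.

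Members with no call changed sign in places. After thinning, treatment log2 fold changes were 0.0833 for Etv5 in CD34− cells and -0.0815 and -0.0663 for Spry1 and Spry2 in CD34+ cells. Over the leave-out runs, the Spry2 effect between untreated fractions ran from -0.093 to 0.161. Treatment effects in CD34− cells ran from -0.00798 to 0.215 for Etv4, -0.248 to 0.0977 for Etv5, -0.192 to 0.0241 for Spred1 and -0.327 to 0.0102 for Spry1. In CD34+ cells they ran from -0.217 to 0.026 for Dusp6, -0.0606 to 0.26 for Etv5, -0.0976 to 0.112 for Spry1 and -0.0603 to 0.15 for Spry2. Averaged effects ran from -0.0107 to 0.18 for Dusp5 and -0.0984 to 0.155 for Etv5. Interactions ran from -0.102 to 0.124 for Dusp6, -0.0824 to 0.173 for Etv4, -0.243 to 0.0201 for Spred1 and -0.0358 to 0.346 for Spry1.

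With 10 to 25 Spry1 UMIs and 18 to 43 Spry2 UMIs a library, depth limits what can be seen for these genes.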
